A study of Homo sapiens with 7 samples.

Results

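The PI3K, AKT, mTOR and TSC genes examined here are PIK3CA, PIK3CB, PIK3R1, AKT1, AKT2, MTOR, TSC1 and TSC2, 8 of the 26175 gene entries with a single FPKM value in human T47D/A1-2 cells. They were chosen by symbol, as the core kinases and regulators of 1 signaling pathway. The choice used no measured value, but earlier results of these data were known when it was made. A gene TSS was counted for a gene when it lay inside the locus that the RNA-seq table gives for the gene, widened by 1000 nt on each side. The coordinates printed below beside the name of each gene are those of this locus before widening. They can differ from the annotated extent of the gene. The widened loci held 9 of the 10391 called gene TSSs, of which 8 lay on the strand of the gene and belonged to 6 of the 8 genes. Upstream and downstream antisense TSSs (uaTSSs and daTSSs) were taken from the calls that share an identifier with these gene TSSs.

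T47D is a luminal breast cancer cell line, and the A1-2 subline used here has 2 additions that all samples share, which are excess glucocorticoid receptor of the rat and, in its genome, luciferase under the mouse mammary tumor virus (MMTV) promoter. All samples come from 1 growth condition, in which cells were cultured with 10% fetal bovine serum and then kept with 5% charcoal-stripped serum for at least 24 hours, so that no treatment was compared. RNA-seq measured steady-state transcripts in 3 replicates that the authors merged into 1 FPKM value per gene, and Start-seq mapped the capped 5′ ends of short nuclear RNAs to single nucleotides, with all TSS calls made from replicate 1 of 2. Each level and each call therefore stands without an error between replicates, and no difference between genes was tested.

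Class I phosphoinositide 3-kinases (PI3Ks) phosphorylate the membrane lipid PIP2 to PIP3 when growth factor receptors are engaged. PIP3 recruits the AKT kinases to the membrane, and active AKT phosphorylates many substrates, among them TSC2. The complex of TSC1 and TSC2 keeps the small GTPase RHEB inactive, and RHEB activates the kinase mTOR, which promotes protein synthesis and cell growth. In breast epithelium the pathway acts downstream of insulin, insulin-like growth factor and ERBB receptors.

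The sequence from 20 nt upstream of each gene TSS through the first 10 transcribed bases is shown for 7 gene TSSs of 5 genes, because these positions are the data on initiation at each gene. Bases were read from GRCh37, the same sequence as hg19, on the strand of the gene. The capitals mark positions -1 and +1, where +1 is the called first base.
PIK3CA gene TSS (chr3:178866125-178866154, plus strand): agcgagaagtagaaagcggCAgttccggtg
PIK3R1 gene TSS 1 (chr5:67511079-67511108, plus strand): aattgcagggcctctccgcTTtggcgagct
PIK3R1 gene TSS 2 (chr5:67584211-67584240, plus strand): agacgtgcgagcgcctgggCTcctttcctc
PIK3R1 gene TSS 3 (chr5:67586484-67586513, plus strand): tccaagacaccattacaaaGAaagccggac
AKT1 gene TSS (chr14:105261881-105261910, minus strand): cccagcgccggcccgcgggGAtgcggagcg
AKT2 gene TSS (chr19:40791238-40791267, minus strand): ggcggggggggccgcgccgTGctagccgtt
TSC1 gene TSS (chr9:135819986-135820015, minus strand): gggggaggtgctgtacgtcCAagatggcgg
The 7 windows do not share 1 pair of bases at the start. CA stands at -1 and +1 in the windows of PIK3CA and TSC1, while AKT2 has TG and AKT1 has GA. At PIK3R1, the first gene TSS has TT, the second has CT and the third has GA.

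All 8 genes had an FPKM of 1 or more. FPKM, the fragments of a transcript scaled by its length and by the mapped fragments of the library, corrects for transcript length, so that levels of different genes can be set side by side. The lowest of the 8 values was 10.8 for TSC1 and the highest was 207 for AKT1, with a median of 29.9. Of all gene entries, 12271 (46.9%) had an FPKM of 1 or more. The median of these expressed genes was 14.4, and 7 of the 8 pathway genes lay above it.

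The catalytic and regulatory subunits of PI3K stood at nearly the same level. PIK3CA (ENSG00000121879; chr3:178866311-178952497, plus strand), which encodes the catalytic subunit alpha, had an FPKM of 30.6. PIK3CB (ENSG00000051382; chr3:138371540-138478201, minus strand), which encodes the catalytic subunit beta, had an FPKM of 28.9. The ratio of the FPKM of PIK3CA to that of PIK3CB was 1.06. PIK3R1 (ENSG00000145675; chr5:67511584-67597649, plus strand) encodes the regulatory subunit that binds, stabilizes and restrains the catalytic subunits. Its FPKM was 32.0, which was 1.05 times that of PIK3CA. The leukocyte-enriched catalytic subunits were low, with an FPKM of 0.219 for PIK3CD and a listed value of 0 for PIK3CG. The regulatory paralogues PIK3R2 and PIK3R3 had FPKM values of 25.8 and 23.7, so that the FPKM of PIK3R1 was 1.24 and 1.35 times theirs.

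AKT1 stood apart from the other genes. AKT1 (ENSG00000142208; chr14:105235687-105262080, minus strand) had an FPKM of 207, the rank of 287 from the top among 26175 gene entries. AKT2 (ENSG00000105221; chr19:40736224-40791302, minus strand), the isoform known for its part in insulin-stimulated glucose uptake, had an FPKM of 29.2. The FPKM of AKT1 was thus 7.08 times that of AKT2. AKT1 was also 6.21 times the next of the 8 genes, TSC2, and 3003 gene entries had an FPKM between them.

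MTOR and TSC1 were the lowest of the 8. MTOR (ENSG00000198793; chr1:11166588-11322608, minus strand) encodes the kinase of both mTOR complexes and had an FPKM of 15.2, which was 1.06 times the median of expressed genes. TSC1 (ENSG00000165699; chr9:135766735-135820020, minus strand) encodes hamartin, which stabilizes its partner, and TSC2 (ENSG00000103197; chr16:2097990-2185899, plus strand) encodes tuberin, the subunit that acts on RHEB. The FPKM of TSC2 was 33.4 and was 3.08 times that of TSC1. TBC1D7, the remaining subunit of the TSC complex, had an FPKM of 37.8, which was 3.48 times that of TSC1. The table gives TSC2 the same locus as PKD1, whose FPKM was 6.34, and as the microRNA genes MIR1225 and MIR4516, listed at 0. The RNA-seq libraries were strand-specific and enriched for poly-A RNA. How fragments in overlapping parts were divided is not given in the sources used here, so the FPKM of TSC2 is less certain. The locus of MTOR likewise holds ANGPTL7 and MTOR-AS1, both listed at 0, and that of AKT2 holds MIR641, also listed at 0.

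In ascending order, the FPKM values ran TSC1, MTOR, PIK3CB, AKT2, PIK3CA, PIK3R1, TSC2 and AKT1. The 5 genes from PIK3CB to TSC2 spanned a ratio of 1.16, with 464 gene entries between the ends. The steps between these 5 neighbors were 1.01, 1.04, 1.05 and 1.04. Without a value per replicate, the order of those 5 genes could not be told apart from the spread between replicates. The larger steps were 1.41 from TSC1 to MTOR, 1.89 from MTOR to PIK3CB and 6.21 from TSC2 to AKT1. The highest of the 8 FPKM values was 19.1 times the lowest, and without AKT1 that ratio was 3.08.

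Among all gene entries, the FPKM of AKT1 stood at the percentile of 98.9, the 5 genes from PIK3CB to TSC2 stood between 85.7 and 87.4, MTOR at 77.4 and TSC1 at 72.9. Among genes with an FPKM of 1 or more, AKT1 stood at 97.7, MTOR at 51.7 and TSC1 at 42.3.

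**Figure D1:**
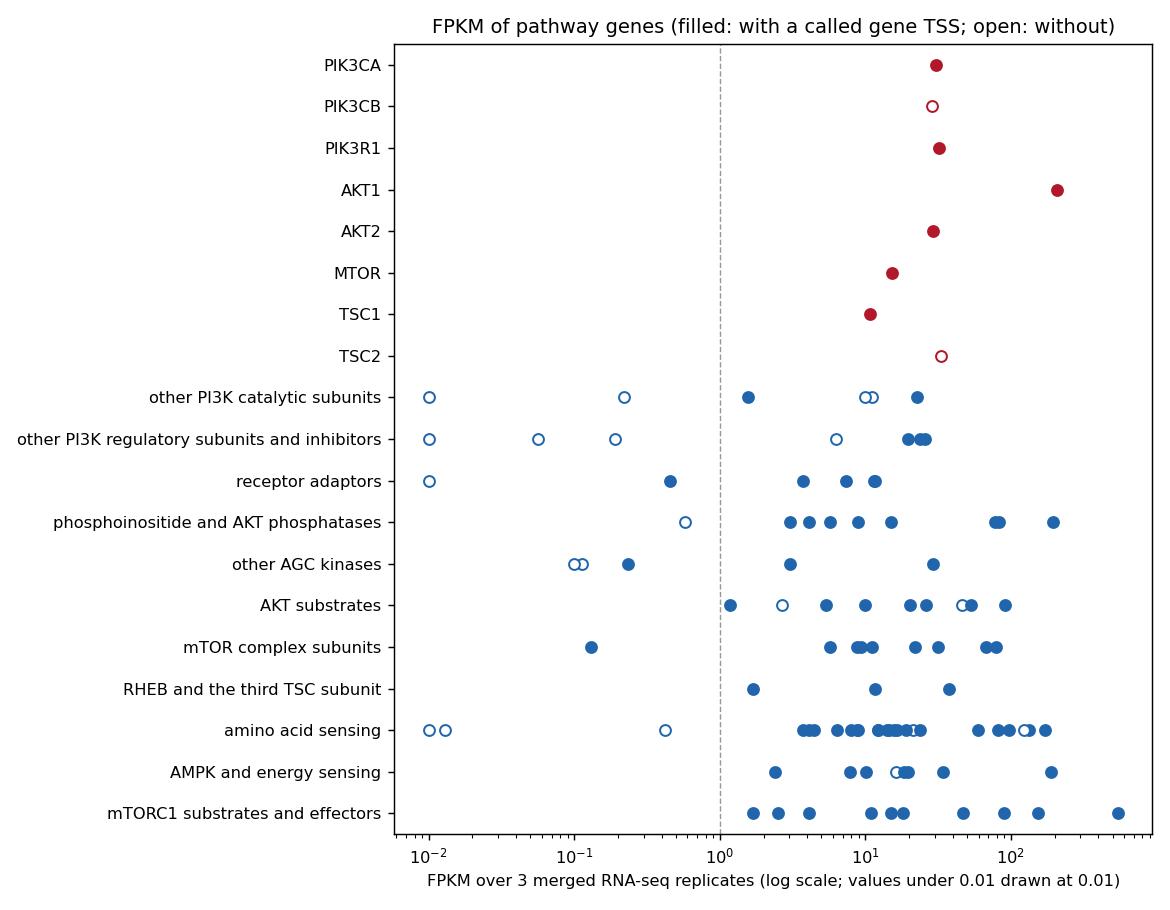
FPKM of the PI3K, AKT, mTOR and TSC genes (red, 1 row each) and of 97 other pathway genes (blue, 1 row per list) on a log axis. Each point is 1 gene with its FPKM over the merged replicates, filled where a gene TSS was called and open where none was, the dashed line marks an FPKM of 1, and values under 0.01 are drawn at 0.01. AKT1 at 207 lies to the right of the other 7 red points, which lie between 10.8 and 33.4.

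The rest of the pathway was counted in 11 lists with 97 genes, all of which were in the table. Of these, 82 (84.5%) had an FPKM of 1 or more, beside 46.9% of all gene entries, which include noncoding genes. The remaining 15 were under 1, and 3 of those were listed at 0. The median FPKM of the 97 genes was 11.1. TSC1, the lowest of the 8, was exceeded by 51 of the 97 genes, and AKT1 was exceeded by 1, the ribosomal protein gene RPS6 at 545.

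Around PI3K, 4 of 6 other catalytic subunits had an FPKM of 1 or more, led by the class III enzyme PIK3C3 at 22.6. The same held for 4 of 7 other regulatory subunits and inhibitors, from PIK3R2 at 25.8 to PIK3R6 at 0, and for 4 of 6 receptor adaptors, from GRB10 at 11.6 to IRS4 at 0. Of 9 phosphatases that act on phosphoinositides or on AKT, 8 had an FPKM of 1 or more, from the scaffold PPP2R1A at 194 to INPP5D at 0.581.

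Of 5 other AGC kinases, 2 had an FPKM of 1 or more. PDPK1, which phosphorylates AKT in its activation loop, was the highest at 29.3, close to the level of AKT2, and SGK2 was the lowest at 0.10. All 9 AKT substrates had an FPKM of 1 or more, from the transcription factor FOXO1 at 1.17 to the BCL2 family member BAD at 91.4.

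Around mTOR, 8 of 9 subunits and assembly factors of its complexes had an FPKM of 1 or more, from MAPKAP1 at 78.9 down to PRR5L at 0.130. MLST8, shared by both complexes, had an FPKM of 68.0, which was 4.46 times that of MTOR. RPTOR, which defines mTORC1, had 9.37, and RICTOR, which defines mTORC2, had 5.74. The FPKM of MTOR was 1.63 times that of RPTOR and 2.66 times that of RICTOR. RHEB had an FPKM of 11.6, and its relative RHEBL1 had 1.70. Of 25 genes for amino acid sensing, 22 had an FPKM of 1 or more, from LAMTOR1 at 172 to SESN3 at 0.00268. All 8 genes of AMPK and energy sensing did, from PRKAG1 at 189 to PRKAA2 at 2.41. So did all 10 genes on the list drawn up for mTORC1 substrates and downstream effectors. RPS6, which S6 kinases phosphorylate, was the highest at 545 and GRB14 the lowest at 1.68. GRB14 is a receptor adaptor and was counted here only because the list held it. Without it the lowest was TFEB at 2.52.

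The labelled cell type was checked with marker genes. All 9 luminal markers had an FPKM of 1 or more, from 44.1 for ESR1 to 1142 for KRT8. The same held for 1 of 5 basal markers (ACTA2 at 3.20, with KRT5 and KRT14 listed at 0), 1 of 4 fibroblast markers (COL1A1 at 8.82) and 1 of 6 blood and endothelial markers.

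Initiation was next examined at each gene. Among 6736 genes counted with an FPKM inside the range of the 8, 5809 (86.2%) had a gene TSS of their own, beside 6 of the 8 pathway genes. That count does not cover all gene entries in this range. The authors searched for gene TSSs around mRNA starts only, while the gene entries also include noncoding genes. Whether coding genes alone give other shares was not tested, here or below. PIK3CA, AKT1, AKT2, MTOR and TSC1 had 1 each, PIK3R1 had 3, and PIK3CB and TSC2 had none. At 4 of the called positions, those of PIK3CA, AKT2, TSC1 and the third gene TSS of PIK3R1, the distance to the nearest annotated transcript start was 4 nt or less. Over 10308 gene TSSs with an annotated start in reach, the median of this distance was 10.0 nt, with quartiles of 1 and 51.0 nt.

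The gene TSS of PIK3CA was called at chr3 position 178866145, exactly at an annotated start, in the 5′ UTR. This is 166 nt upstream of the locus given in the RNA-seq table. At TSC1 the call at chr9 position 135819995 also matched an annotated start, in the 5′ UTR. AKT2 was called at chr19 position 40791247, in the 5′ UTR and 2 nt downstream of an annotated start. AKT1 was called at chr14 position 105261890, in the 5′ UTR and 11 nt upstream of the nearest annotated start. That distance was equaled or exceeded by 49.7% of gene TSSs with an annotated start in reach.

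PIK3R1 was called at 3 positions of chromosome 5, which are 67511099, 67584231 and 67586504. Of the 5809 counted genes in this FPKM range with a gene TSS, 16 (0.275%) had 3 or more. Among the 97 other pathway genes, 7 had 2 or more, and 1, TFEB at an FPKM of 2.52, had 3. The authors called 1 gene TSS per search window and merged overlapping windows of the same gene. The number of calls possible for a gene therefore depends on how its annotated starts are spaced. The first position lay outside the annotated transcripts of the gene, 469 nt upstream of the nearest annotated start. The second lay 73132 nt downstream of the first, in the 5′ UTR of 1 transcript and 292 nt upstream of the nearest annotated start. The last position lay another 2273 nt downstream, 4 nt past the annotated start of a transcript without a coding sequence. It was in the 5′ UTR of a different PIK3R1 transcript. PIK3R1 is known to produce a long and several shorter proteins from separate promoters, the shorter lacking the N-terminal domains. The FPKM of PIK3R1 is 1 value for the gene and does not divide its RNA among these starts.

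The call for MTOR lay far from the annotated gene. It stood at chr1 position 11323516, outside the annotated transcripts of the gene and 903 nt upstream of the nearest annotated start. Among the 10308 gene TSSs with an annotated start within 1000 nt, a distance as large was found at 0.534%. A distance of 400 nt or more was found at 709 of these (6.88%), among them those of MTOR and the first of PIK3R1. Gene TSSs without an annotated start in that reach, which would lie farther away, are not counted in either share. The first 25 transcribed bases at the MTOR call occurred 1252 times in the genome on both strands, whereas those of the other 7 gene TSSs occurred once. Over all gene TSSs, 69 (0.664%) had first bases that occurred more than once, and 1 (0.00962%), that of MTOR, had 1000 copies or more. The first 30 bases at the MTOR call occurred once. The reads were aligned uniquely by the authors, and whether read length or copy number bears on the position of the call was not tested.

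PIK3CB and TSC2 had no gene TSS, although their FPKM of 28.9 and 33.4 exceeded those of MTOR and TSC1, which had a call. For PIK3CB, the nearest call on its strand lay 69731 nt from any of its 14 annotated starts, and the nearest on either strand lay 55319 nt away. For TSC2, the nearest call on its strand lay 14195 nt from any of its 60 annotated starts. The TSC2 locus did contain a minus-strand gene TSS at chr16 position 2098398, in a TSC2 intron, 430 nt downstream of the first TSC2 start. It lay 531 nt upstream of the annotated start of NTHL1, a DNA glycosylase gene transcribed in the opposite direction with an FPKM of 37.7, and was counted for NTHL1. Calls required 5 reads at 1 nucleotide, so that a gene without a call had no position reaching that count in its search window or was not searched, and the deposited calls do not separate these cases.

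**Figure D2:**
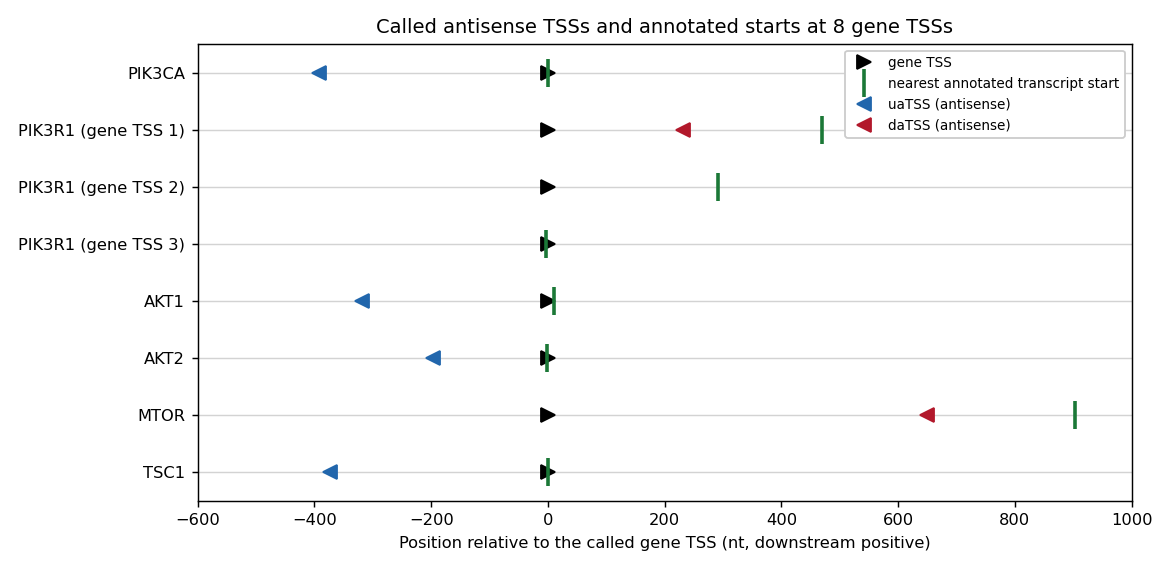
Called TSSs of the 6 genes with a gene TSS, 1 row per gene TSS (those of PIK3R1 are numbered in the direction of transcription), in nt from the gene TSS with downstream positive. Black arrowheads mark the gene TSS, blue and red arrowheads mark the uaTSS and daTSS, and green bars mark the nearest annotated transcript start. The uaTSSs lie 197 to 392 nt upstream, and the annotated starts of MTOR and of the first PIK3R1 gene TSS lie 903 and 469 nt downstream of the call, beyond the daTSS.

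Antisense calls accompanied 6 of the 8 gene TSSs. There were 4 uaTSSs and 2 daTSSs, and no gene TSS had both. The 2 without either were the second and the third gene TSS of PIK3R1. The background was 53.1% for a uaTSS, 28.4% for a daTSS, 17.5% for both and 35.9% for neither. The counts of 4 uaTSSs and 2 daTSSs over 8 gene TSSs were near that background. In the FPKM range of the 8 genes, the shares with a uaTSS and a daTSS were 57.3% and 29.8%. Exact Clopper-Pearson intervals at 95% for the shares over all gene TSSs were 52.1% to 54.1% for uaTSSs and 27.6% to 29.3% for daTSSs, and they cover the counting of calls in 1 library only.

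The antisense TSSs are printed in the same way, each on its own strand, which is opposite to the gene.
PIK3CA uaTSS (chr3:178865744-178865773, minus strand): tgctcttctgacgtttgttTAatgatccgt
AKT1 uaTSS (chr14:105262188-105262217, plus strand): gagggcggagcgcgctcggGGagcgcgcgg
AKT2 uaTSS (chr19:40791424-40791453, plus strand): gcagggcgcctgcgcacatTAgacaacttt
TSC1 uaTSS (chr9:135820349-135820378, plus strand): gggcggggggacgcggcggAGaggcgtaaa
PIK3R1 daTSS (chr5:67511321-67511350, minus strand): gcggccgtgccgcgcgctgCCtccgctgcg
MTOR daTSS (chr1:11322847-11322876, plus strand): tacggcgctgctaggattcCCttctgcatc
TA stands at -1 and +1 at the uaTSSs of PIK3CA and AKT2, GG at that of AKT1 and AG at that of TSC1. Both daTSSs have CC.

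The uaTSS lay 392 nt upstream of the gene TSS at PIK3CA, 374 nt at TSC1, 318 nt at AKT1 and 197 nt at AKT2. The quartiles of this distance over 5519 uaTSSs were 127, 200 and 330 nt, so that PIK3CA and TSC1 lay above the upper quartile and AKT2 near the median. No opposite-strand gene TSS lay within 1000 nt upstream of any of the 8 gene TSSs, so none of these uaTSSs coincided with the gene TSS of a divergent neighbor. The uaTSSs of PIK3CA, AKT1 and AKT2 lay outside transcripts of the gene, and that of TSC1 lay in an intron of longer TSC1 transcripts.

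The daTSSs of MTOR and PIK3R1 lay 649 and 231 nt downstream of their gene TSSs, beside quartiles of 313, 507 and 804 nt over 2956 daTSSs. Relative to the annotation, both lay upstream of the gene. The MTOR daTSS, at chr1 position 11322867, lay 254 nt upstream of the nearest annotated MTOR start, and the PIK3R1 daTSS, at chr5 position 67511330, lay 238 nt upstream of the nearest annotated PIK3R1 start. Such a position was found for 136 of 2937 daTSSs (4.63%) whose gene TSS had an annotated start in reach. It is possible only where the gene TSS itself was called upstream of that start. The share is therefore not separate from the distances of the gene TSSs given above. Both distances fall in the range of the uaTSS distances above, measured there from the gene TSS. The class of an antisense call depends on the position of the gene TSS, and these 2 are the gene TSSs called 400 nt or more from an annotated start. How the calls would be classed from another gene TSS was not tested.

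Base composition around the gene TSSs varied widely within the pathway. In the 200 nt centered on each gene TSS, GC content was 89.5% at AKT1, 74.0% at AKT2, 71.0% at PIK3CA, 65.5% at the first PIK3R1 gene TSS, 63.5% at TSC1, 59.0% at the second of PIK3R1, 51.5% at MTOR and 39.5% at the third of PIK3R1. The median of the 8 was 64.5%, beside 68.0% over all gene TSSs, with quartiles of 61.5% and 74.0%. AKT1 was at the upper end of all promoters, with 5 gene TSSs (0.0481%) at its GC content or above. The third PIK3R1 gene TSS was at the lower end, with 28 (0.269%) at its GC content or below, and MTOR followed with 507 (4.88%).

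CpG dinucleotides were measured as the ratio of observed to expected in the same 200 nt. The ratio was highest at AKT1 with 1.05, then 0.985 at PIK3CA, 0.938 at AKT2, 0.862 at the second PIK3R1 gene TSS, 0.712 at TSC1, 0.654 at the first of PIK3R1, 0.556 at MTOR and 0.258 at the third of PIK3R1. The median over all gene TSSs was 0.880. The third PIK3R1 gene TSS, which lay in an annotated 5′ UTR within the gene, was at the percentile of 2.40 of this ratio and had no antisense call.

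**Figure D3:**
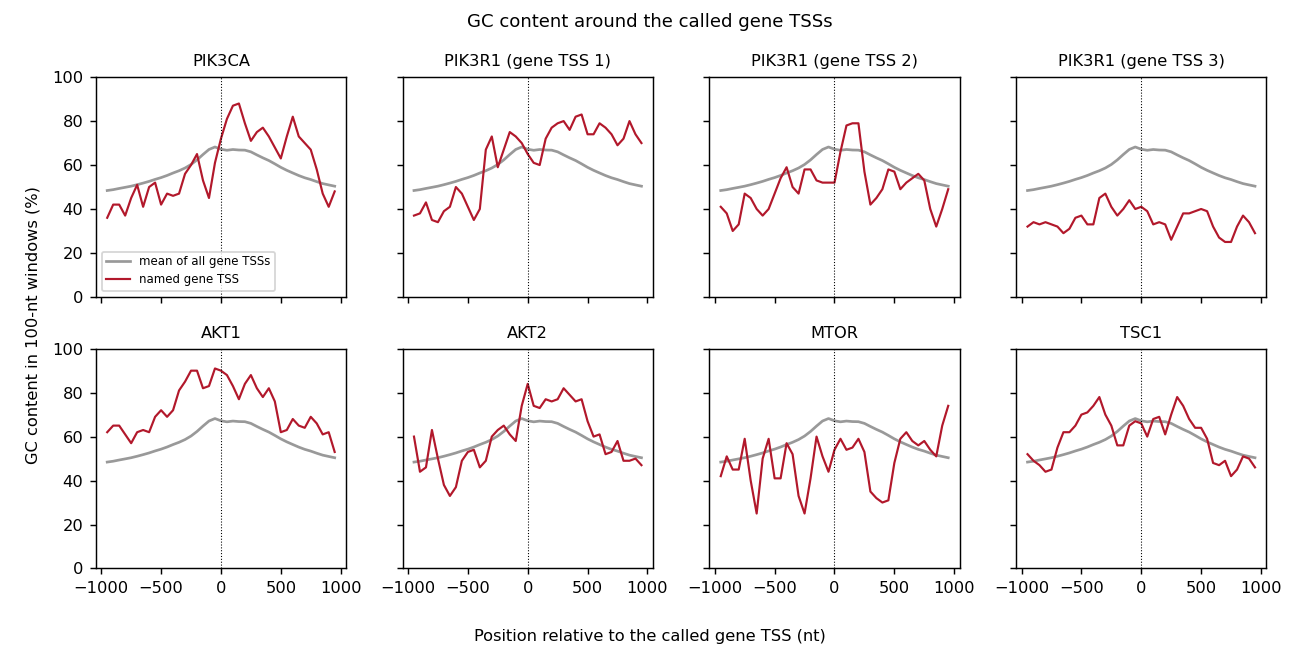
GC content in 100-nt windows within 1000 nt of each gene TSS (red), with the mean over all gene TSSs (gray) in each panel and the gene TSS at the dotted line. AKT1 stays above the mean across the TSS, the third PIK3R1 gene TSS stays below it throughout, and at PIK3CA GC content rises from 45.00% at 100 nt upstream to 88.00% at 150 nt downstream.

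Short sequence elements were sought at the 8 gene TSSs, and a match of letters is a description and not a bound site. A pyrimidine-purine step across -1 and +1, the core of the Initiator element, was found at 4 (PIK3CA, AKT2, MTOR and TSC1) beside 66.1% of all gene TSSs. CA in these positions was found at 3, beside 30.3%. TATAA or TATAT starting 35 to 24 nt upstream was found at none, beside 3.0%.

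The GC box GGGCGG, searched on both strands within 100 nt upstream, was found at 4 gene TSSs, beside 50.2%. It started 57 nt upstream at PIK3CA, 78, 48 and 21 nt upstream at AKT2, and on the opposite strand 50 and 23 nt upstream at AKT1 and 55 nt upstream at the first PIK3R1 gene TSS. CCAAT, searched in the same way, was found at 1, the third PIK3R1 gene TSS, on the opposite strand 82 nt upstream, beside 18.7%. A start like that of terminal oligopyrimidine mRNAs, whose translation depends on mTORC1, was defined as C at +1 followed by 4 pyrimidines. It was found at none of the 8, beside 3.39% of all gene TSSs.

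Initiation and level were last set side by side over the wider pathway. Of the 82 other pathway genes with an FPKM of 1 or more, 73 had a gene TSS, beside 77.1% of 11957 genes counted at that level. That count does not cover all of the 12271 gene entries with an FPKM of 1 or more. Of the 15 under 1, 3 had a gene TSS, which were IRS2 at 0.457, SGK1 at 0.233 and PRR5L at 0.130. The share was 5.39% of the 11653 genes counted under 1. The 76 genes with a call had 84 gene TSSs. A uaTSS belonged to 51 (60.7%) of these, a daTSS to 26 (31.0%) and both to 17 (20.2%), next to the shares of 53.1%, 28.4% and 17.5% over all gene TSSs. Among the 9 gene TSSs of mTOR complex subunits and assembly factors, 6 had a uaTSS and 3 had a daTSS. Both were called at MLST8, RICTOR and TELO2, and neither at RPTOR, PRR5L and TTI1. RHEB and TBC1D7 also had both, and PDPK1 had a uaTSS alone. An FPKM of 10 or more, a threshold chosen after the values were seen, was reached by 53 pathway genes. Of these, 6 had no gene TSS, beside 13.8% of 7279 genes counted at that level. They were SEC13 at 124, GSK3A at 46.4, NPRL2 at 21.4, STK11 at 16.3, IRS1 at 11.4 and PIK3C2A at 11.1.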

How the data were processed

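Start-seq replicate 1 and 3 RNA-seq replicates of T47D/A1-2 cells were used, and the labels name the cells T-47D. The remaining libraries (Start-seq replicate 2, FAIRE-seq, MNase-seq) were left out, since the values here do not draw on them. The authors aligned Start-seq reads uniquely to hg19 (Cutadapt 1.2.1, Bowtie 0.12.8) and called gene TSSs near RefSeq starts, uaTSSs up to 1000 nt upstream and daTSSs up to 2000 nt downstream. They filtered daTSSs near annotated starts on the same strand, and those with enough sense-strand reads at a position within 1000 nt upstream. The deposited calls carry a score of 0 throughout, so that the number of reads behind each call is unknown. The deposited FPKM values were made by the authors with TopHat 2.0.4, Picard 1.118 and Cufflinks 2.2.1 on merged replicates, and the depth of these libraries is likewise unknown. The RNA-seq build is not given in the sources used here.

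Values were joined by symbol, and sequence and transcripts were taken from GRCh37 and GENCODE lifted to it. Each gene TSS was assigned the gene in the table whose annotated start was nearest within 1000 nt on its strand, with older symbols matched through RefSeq synonyms, and 10308 of 10391 received one. Places in a gene were read from all of its transcripts. In percentiles, tied genes were placed at the middle of their ranks. Median log2 FPKM used a pseudocount of 0.1. Python 3.11.15, numpy 2.4.6, scipy 1.17.1 and matplotlib 3.10.9 were used. Joins, sequence searches and copy counts were tested on simulated data. No test between groups was possible with 1 value per gene.

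The genes and lists were chosen with earlier results of these data known. Named beside the 8 genes are their paralogues, direct partners and the highest and lowest FPKM of each list, and some values and 1 sequence are not reported here. The copy counts, the 400-nt distance, the daTSSs set against annotated starts and the genes named last for calls at odds with FPKM were chosen after the data were seen. Alternatives changed the genes behind percentiles, the pseudocount, the minimum FPKM, the locus width, the joins, the windows and the motif searches.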

Additional observations from a re-analysis of the deposited data

How the results depend on the processing

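No paired analysis was possible because the replicates were merged into 1 FPKM value per gene, all TSS calls came from 1 library and no groups were compared. For the same reason no replicate could be left out. Of 24 alternatives, 16 left a value within its limit and 8 did not. The limit was the exact 95% binomial interval for a share or the median percentile, 1.5 times for a count, and the SD over the genes or gene TSSs for median log2 FPKM and GC content. For the median percentile this interval was a set limit only and does not measure the spread over the 8 genes. The median FPKM percentile of the 8 genes, 86.1 among all gene entries, was 80.1 among genes above an FPKM of 0, 70.3 among genes with an FPKM of 1 or more and 67.2 among genes with a gene TSS. Leaving out genes at 0 or under 1 could only lower this percentile, since all 8 genes lie above those limits. The background share for a uaTSS was 57.3% in the FPKM range of the 8 genes in place of 53.1%, and that for a daTSS was 29.8% there and 24.1% with calls up to 1000 nt only, in place of 28.4%. Within 2 nt of the call, 1 gene TSS had a TOP-like start in place of 0, the second of PIK3R1, beside 9.38% of all gene TSSs. Within 200 nt upstream, 3 gene TSSs had CCAAT in place of 1, with PIK3CA and the second of PIK3R1 added, beside 29.7%. The widened loci held 9 gene TSSs with 1000 or 2000 nt added and 6 with none added, and the assignment by nearest annotated start gave 8. Read counts behind the calls are unknown, so a missing call gives no level of initiation.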
